A study of Mus musculus with 10 samples.

Results

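The 33 genes described here build, load and present peptide on major histocompatibility complex (MHC) class I molecules in mouse cells. They were taken as a list of class I heavy chains, the light chain, peptide loading factors, immunoproteasome subunits and peptide-trimming enzymes. The list was chosen with earlier results of these data known. All 33 were found among the 41743 gene names of the count files. Of these, 32 passed the filter on low counts, and Cd1d1 did not.

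A class I molecule is a heavy chain paired with beta-2 microglobulin, the light chain B2m. It shows short peptides from the cell's own proteins to CD8 T cells, and some nonclassical heavy chains are read by natural killer cells or by unconventional T cells. The peptides are cut by the proteasome, pumped into the endoplasmic reticulum by the transporter Tap1/Tap2, trimmed there, and fitted into the groove with the help of tapasin (Tapbp) and chaperones. Interferons raise many of these genes through the Stat and Irf factors, and Nlrc5 is the transactivator that acts on class I promoters. Tumour cells that lose this machinery are harder for CD8 T cells to see.

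K7M2 is a metastatic mouse osteosarcoma cell line of BALB/c origin. Ezrin links the plasma membrane to cortical actin, and phosphorylation of a threonine near its end opens it. The study disrupted ezrin (Ezr) in K7M2 with CRISPR/Cas9 and put ezrin back in 3 forms by stable transfection. The 5 lines were the ezrin-disrupted line carrying the T567A mutant, which cannot be phosphorylated at that site, the same disrupted line carrying the phosphomimetic T567D mutant, the same carrying wild-type ezrin, the same carrying an empty vector, and parental K7M2, which was neither edited nor transfected. Each line had 2 polyA RNA libraries, so all 10 libraries came from untreated cultured cells. Replicates were numbered up to 3, each line lacks 1 of the numbers, and the labels do not say why. The labels do not say whether a line is 1 clone or a pool, nor whether its libraries came from separate cultures. The p-values therefore measure library-to-library spread only, part of it possibly technical, and each comparison is between 2 lines.

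Each library held 14679424 to 18230763 counted reads, which puts 3 counts at 0.165 to 0.204 CPM (the count scaled to a common library size). Mitochondrial reads took 1.44% and 1.9% of counts in the T567A libraries and 0.844% to 1.33% in the other 8, and the part of this difference in the results was not tested. Ezr stood at 248 and 253 CPM in T567A cells, 204 and 181 CPM in T567D cells, 230 and 233 CPM in wild-type ezrin cells, 72.4 and 72.8 CPM in empty-vector cells and 164 and 166 CPM in parental cells. How many of these reads came from the transfected cDNA was not tested. Of 10 osteoblast markers 6 reached 1 CPM in some library, among them Runx2, and Sp7, Bglap, Ibsp and Dmp1 stayed under 0.5 CPM. Of 14 leukocyte markers 5 reached 1 CPM and 5 had no count in any library. Csf1r was the exception at 1176 to 1680 CPM, and without it the leukocyte markers summed to 4.97 and 5.06 CPM in T567A cells and 3.11 to 6.29 CPM in the other libraries. The defining leukocyte gene Ptprc had at most 0.414 CPM. A change in bulk RNA cannot tell fewer cells of a kind from less RNA per cell.

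The T567A line had the highest mean of the 5 lines for 20 of the 32 tested members, and the parental line for 9. The wild-type ezrin line had the lowest mean for 12. How often each line held the highest or lowest mean among all tested genes is not given. These counts of highest and lowest means therefore cannot be read against a background. Over the 5 lines, 30 of the 32 differed at an adjusted p under 0.05 (edgeR quasi-likelihood test with Benjamini-Hochberg adjustment over all 12595 genes tested), which is the threshold for every call here. Among all tested genes 78% did so. The 2 without a call were Psmb6 and Psmb7, catalytic subunits of the standard proteasome.

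**Figure D1:**
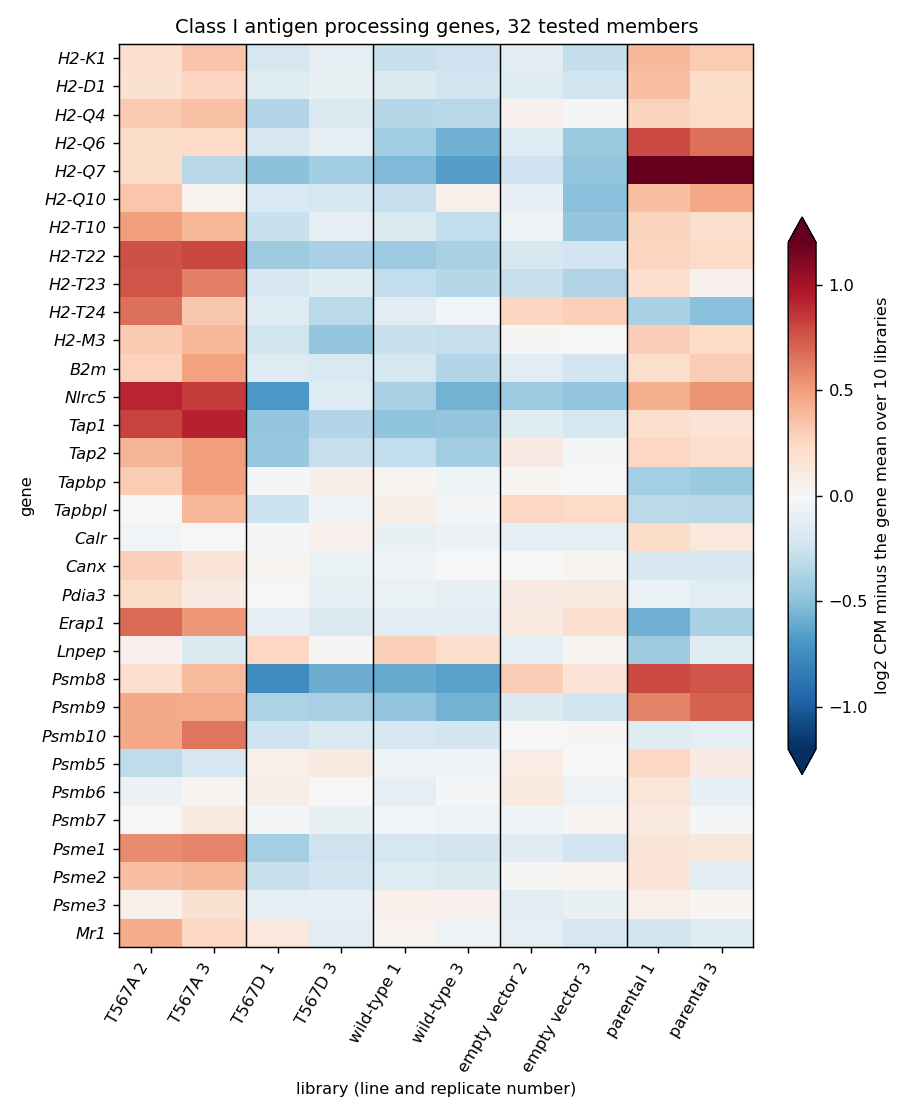
The 32 tested members (rows, by role) in the 10 libraries (columns), coloured by log2 CPM minus the gene's mean over the 10 libraries. The T567A columns are mostly red from H2-K1 to Tap2 and the T567D and wild-type columns mostly blue, while the parental columns are red for H2-Q7 and Psmb8 and blue for Tapbp and Erap1.

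T567A cells were compared with wild-type ezrin cells to ask what a loss of phosphorylation at the site changes. Of the 32 members, 23 were higher in T567A cells, 2 were lower and 7 were not called. The median log2 fold change was 0.56, against 0.00 over all 12595 genes. Among all tested genes, 20.4% were higher and 19.1% were lower in this comparison. Since the members were chosen with earlier results of these data known, this contrast with all genes is a description only. The higher members spanned heavy chains, the light chain, transport, trimming and the immunoproteasome. The lower ones were Psmb5 and Lnpep.

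The classical heavy chains H2-K1 and H2-D1 present peptide to CD8 T cells. H2-K1 (chr17:33996017-34000347, minus strand, GRCm38) stood at 572 and 628 CPM in T567A cells, against 413 and 418 CPM in wild-type ezrin cells. T567D cells had 432 and 462 CPM, empty-vector cells 452 and 409 CPM, and parental cells 652 and 615 CPM. The T567A and parental libraries overlapped, and both stood above the other 6 libraries. H2-K1 rose 0.53 ± 0.065 in T567A over wild-type ezrin cells (log2 fold change ± SE, adjusted p = 1.7e-06). H2-D1 (chr17:35262730-35267499, plus strand) had 1366 and 1441 CPM in T567A cells, against 1067 and 1020 CPM in wild-type ezrin cells, and rose 0.43 ± 0.062 (adjusted p = 1.3e-05).

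Per length, H2-D1 was the most abundant of the 11 heavy chain members. It made up 52.2% ± 0.29 of the summed RPKM (reads scaled to gene length and library size) of the 11 heavy chain members in T567A cells (SD, n = 2), and 56.8% ± 0.83 in wild-type ezrin cells (SD, n = 2). H2-K1 added 19.6% ± 0.67 and 19.9% ± 0.52 in the same lines. The 11 heavy chains summed to 962 ± 39 RPKM in T567A cells, 716 ± 21 in T567D cells, 672 ± 12 in wild-type ezrin cells, 706 ± 35 in empty-vector cells and 956 ± 51 in parental cells (SD, n = 2 each). The T567A and parental sums overlapped, and neither overlapped the other 3 lines. With their counts added into 1 row before the fit, so that the division of reads among the 11 no longer matters, though not that with copies outside them such as H2-Q1, the heavy chains rose 0.56 ± 0.061 in T567A over wild-type ezrin cells (log2, adjusted p = 2.5e-07). The same sum differed by 0.00 ± 0.061 between T567A and parental cells (adjusted p = 0.99).

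Of the 9 nonclassical heavy chains, T567A cells had 8 above wild-type ezrin cells. H2-T22 (chr17:36037128-36042747, minus strand), a ligand of some gamma delta T cells, had 243 and 250 CPM in T567A cells, 107 and 109 CPM in T567D cells, 106 and 109 CPM in wild-type ezrin cells, 126 and 122 CPM in empty-vector cells and 172 and 169 CPM in parental cells. T567A was the highest line and its libraries overlapped none of the others. H2-T22 rose 1.2 ± 0.06 over wild-type ezrin cells (log2, adjusted p = 1.5e-12), which is 2.3-fold. Its share of heavy chain RPKM was 6.93% ± 0.088 in T567A cells and 4.42% ± 0.18 in wild-type ezrin cells (SD, n = 2 each). H2-T23 (chr17:36029773-36032855, minus strand) encodes Qa-1, which shows leader peptides of other class I chains to the natural killer receptor NKG2A. H2-T23 had 125 and 112 CPM in T567A cells, 64.1 and 66.8 CPM in T567D cells, 60.1 and 58.3 CPM in wild-type ezrin cells, 60.9 and 57.4 CPM in empty-vector cells and 84.8 and 76.6 CPM in parental cells. T567A again stood above all other libraries, and the rise over wild-type ezrin cells was 1.00 ± 0.073 (log2, adjusted p = 5.7e-10).

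The other nonclassical chains moved less. H2-Q4, H2-T10, H2-T24 and H2-M3, which presents formylated peptides, rose by 0.67, 0.68, 0.58 and 0.62 on the log2 scale. The Qa-2 genes H2-Q6 and H2-Q7 rose by 0.72 and 0.55. H2-Q7 was low, with 11.0 and 7.57 CPM in T567A cells against 6.57 and 6.00 CPM in wild-type ezrin cells, and its call was lost without T567A replicate 2 and without wild-type ezrin replicate 3. H2-Q10, which encodes a secreted chain known mainly from liver, had 4.97 and 4.06 CPM in T567A cells against 3.26 and 4.11 CPM in wild-type ezrin cells and was not called (adjusted p = 0.26).

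Similar class I copies can share reads. Of their annotated exonic 100-base windows, 12% of H2-Q7, 10.8% of H2-Q6, 8.86% of H2-T22, 8.01% of H2-Q10 and 7.06% of H2-T10 also occur in another gene, mostly in each other. H2-K1, H2-D1, H2-Q4 and H2-T23 shared 0.957%, 3.59%, 2.16% and 3.15%. The windows pool all annotated transcripts of a gene and count exact matches only. Shares within a single transcript can be higher, so these 4 genes are not shown to be free of shared reads. Values of H2-Q6, H2-Q7, H2-Q10, H2-T10 and H2-T22 are therefore uncertain one by one. The reference genome is of another mouse strain with other class I alleles than BALB/c, and how many reads of each allele were counted was not tested. The class I genes H2-L, H2-Q8, H2-Q9, H2-T9 and H2-T18 were not among the gene names of the count files. Whether reads of such genes were counted as H2-D1 or another member was not tested. All 5 lines share these limits.

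B2m, the light chain (chr2:122147686-122153083, plus strand), had 878 and 1011 CPM in T567A cells, 651 and 638 CPM in T567D cells, 626 and 568 CPM in wild-type ezrin cells, 658 and 618 CPM in empty-vector cells and 839 and 892 CPM in parental cells. As with the heavy chain sum, the T567A and parental libraries stood above the other 6. B2m rose 0.66 ± 0.069 in T567A over wild-type ezrin cells (log2, adjusted p = 1.6e-07). Per length, B2m RPKM divided by the summed heavy chain RPKM was 1.05 ± 0.071 in T567A cells, 0.99 ± 0.047 in T567D cells, 0.974 ± 0.049 in wild-type ezrin cells, 0.987 ± 0.0057 in empty-vector cells and 0.962 ± 0.094 in parental cells (SD, n = 2 each). In this ratio T567A libraries overlapped those of every line but the empty vector, which lay within the ranges of the other 3.

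B2m and 4 heavy chains, H2-K1, H2-D1, H2-Q7 and H2-M3, share a promoter layout, and 4 of these 5 stretches are shown to make it visible. The pair of boxes that defines it was not found in the windows of H2-T22, H2-T23, H2-Q4, H2-Q6 and H2-Q10. They end at the Y box and are written 5′ to 3′ on the gene's own strand, from RefSeq's promoter table (GRCm38.p6). Capitals mark 3 elements on either strand: the interferon response letters GAANNGAAA or a wider form with 1 more A before the gap, then the X2 box and the Y box whose letters are given after the sequences.
H2-K1, chr17:34000359-34000458, minus strand: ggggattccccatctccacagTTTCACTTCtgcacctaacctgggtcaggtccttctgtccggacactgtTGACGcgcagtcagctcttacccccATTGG
H2-Q7, chr17:35439020-35439119, plus strand: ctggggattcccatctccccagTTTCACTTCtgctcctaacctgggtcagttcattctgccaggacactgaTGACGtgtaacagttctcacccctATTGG
H2-M3, chr17:37270118-37270217, plus strand: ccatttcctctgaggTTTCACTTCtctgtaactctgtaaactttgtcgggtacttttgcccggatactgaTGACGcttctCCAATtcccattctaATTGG
B2m, chr2:122147539-122147638, plus strand: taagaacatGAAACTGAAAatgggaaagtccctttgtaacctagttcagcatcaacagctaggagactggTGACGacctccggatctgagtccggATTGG

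In these 4 stretches the first base of the X2 letters stood 25 bases before that of the Y letters in H2-K1, H2-M3 and B2m, and 24 before it in H2-Q7. H2-D1 had the pair 25 bases apart as well. The X and Y boxes are the background elements through which Nlrc5, with RFX and NF-Y factors, acts on class I genes. Promoter entries were found for 26 of the 33 members, and the 250 bases before the start were searched on both strands. The X2 and Y letters on 1 strand with starts 23 to 27 bases apart, a spacing chosen after these sequences were seen, were in 5 of the 26 members and in 81 of all 32851 promoters (0.247%). Taken alone the letters are common. The Y letters ATTGG were in 16 of 26 members and 33.8% of all promoters, and the X2 letters TGACG in 15 of 26 and 17.8%.

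The interferon letters GAANNGAAA were in 8 of 26 members and 6.31% of all promoters. The 8 were H2-K1, H2-D1, H2-M3, H2-Q4, H2-Q6, H2-Q7, H2-Q10 and Psmb6, so the set holds both called heavy chains and the uncalled H2-Q10 and Psmb6. The wider form, GAAA on both sides of any 2 bases, was in B2m, H2-T22 and H2-T23, 3 of 26 members, and in 2.98% of all promoters. The kappa B letters GGGNNTTCC were in 5 of 26 members, all heavy chains, and in 4.98% of all promoters, and the gamma-activated site TTCNNNGAA in 2 of 26 and 7.02%. A match of letters is a description and not a bound site.

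Nlrc5 (chr8:94434356-94527272, plus strand), the class I transactivator, had 55.8 and 52.9 CPM in T567A cells, 18.4 and 26.5 CPM in T567D cells, 22.6 and 19.9 CPM in wild-type ezrin cells, 21.8 and 21.3 CPM in empty-vector cells and 39.9 and 43.0 CPM in parental cells. The lines fell into an upper pair, T567A above parental, and 3 lower lines whose libraries overlapped. Nlrc5 rose 1.35 ± 0.12 in T567A over wild-type ezrin cells (log2, adjusted p = 2.1e-07) and 1.28 ± 0.12 over T567D cells (adjusted p = 3.4e-07).

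**Figure D2:**
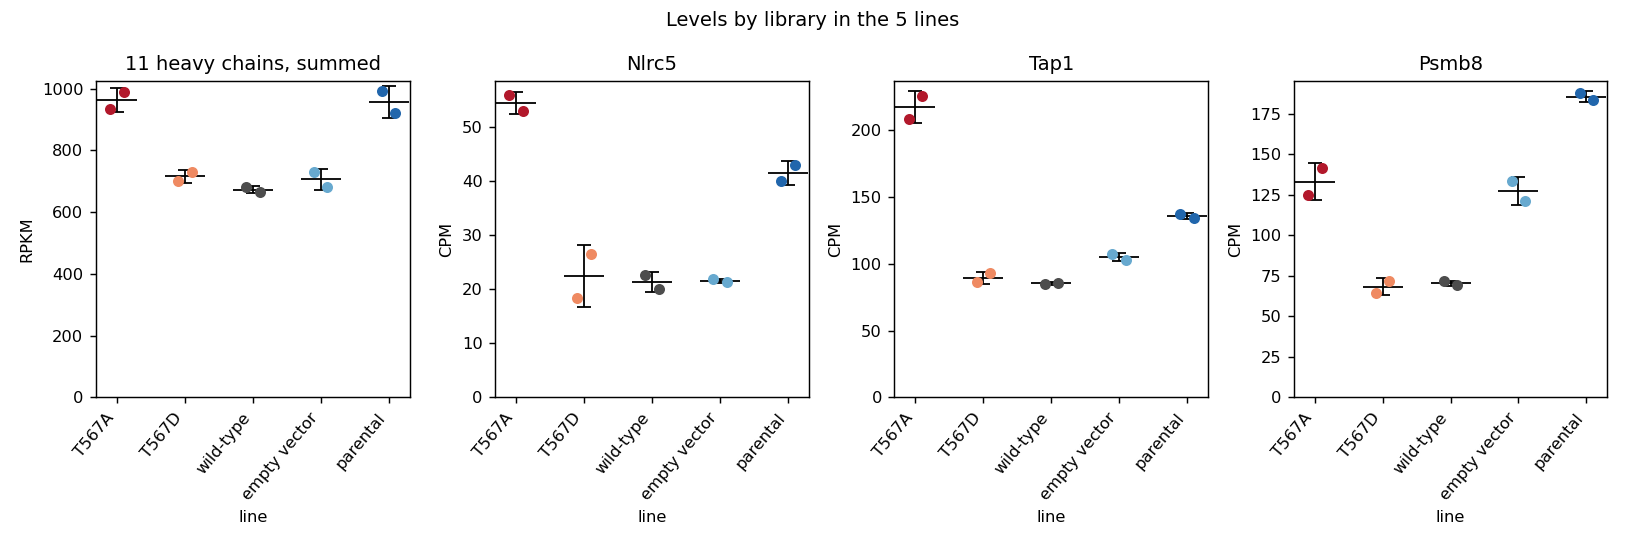
Levels in each library (points) of the 5 lines, with the mean and SD (bars, n = 2): the summed heavy chains in RPKM, and Nlrc5, Tap1 and Psmb8 in CPM. T567A and parental have the 2 highest means in each panel, and for Psmb8 the empty-vector libraries (134 and 121 CPM) overlap those of T567A.

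In peptide transport, Tap1 showed the largest rise beside Nlrc5. Tap1 (chr17:34187553-34197225, plus strand) had 208 and 226 CPM in T567A cells, 86.0 and 92.7 CPM in T567D cells, 84.6 and 85.9 CPM in wild-type ezrin cells, 107 and 103 CPM in empty-vector cells and 137 and 134 CPM in parental cells. T567A stood above every other library. Tap1 rose 1.35 ± 0.066 in T567A over wild-type ezrin cells (log2, adjusted p = 1.1e-12), or 2.55-fold. Its partner Tap2 had 113 and 121 CPM in T567A cells, against 69.4 and 63.9 CPM in wild-type ezrin cells, and rose 0.81 ± 0.074 (adjusted p = 2.1e-08).

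Tap1 lies head to head with the immunoproteasome gene Psmb9. Their RefSeq starts, at 34187556 and 34187330 on chromosome 17, lie 225 bases apart, and annotated exons of the 2 genes overlap on opposite strands. The library kit marks strand, but no source used here says whether the counting used strand, and reads in that overlap cannot be told apart. The same holds for Psmb8 and Tap2 with Gm20496, Erap1 with Cast, Nlrc5 with 9330175E14Rik, H2-T22 with A930015D03Rik, H2-Q4 with Gm11131, H2-T10 with BC023719, Psme1 with Emc9, Pdia3 with Catsper2, Psmb7 with Nek6, Tapbp with Gm19412 and Tap2 with Gm15821.

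The loading factors rose less than the transporter. Tapbp, which bridges heavy chain and transporter, had 812 and 926 CPM in T567A cells against 672 and 636 CPM in wild-type ezrin cells and rose 0.41 ± 0.065 (log2, adjusted p = 3.7e-05). It shares exonic bases with Zbtb22 on the same strand. The chaperone Canx and the oxidoreductase Pdia3 rose 0.24 ± 0.06 and 0.26 ± 0.059. Canx lost its call without wild-type ezrin replicate 1. The tapasin relative Tapbpl changed by 0.20 ± 0.11 and the chaperone Calr by 0.07 ± 0.056, neither of them called, though Tapbpl was called without T567A replicate 2.

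The trimming enzymes went opposite ways. Erap1 (chr13:74639568-74693201, plus strand), the aminopeptidase that shortens peptides in the endoplasmic reticulum, had 178 and 160 CPM in T567A cells, 104 and 98.6 CPM in T567D cells, 101 and 101 CPM in wild-type ezrin cells, 120 and 127 CPM in empty-vector cells and 74.5 and 84.5 CPM in parental cells. T567A was highest and parental lowest, with no overlap. Erap1 rose 0.74 ± 0.072 over wild-type ezrin cells (log2, adjusted p = 5e-08). Lnpep, an endosomal aminopeptidase, had 93.4 and 80.7 CPM in T567A cells against 110 and 105 CPM in wild-type ezrin cells and fell by 0.31 (adjusted p = 0.025). Its call was lost without T567A replicate 3 and without either wild-type ezrin library.

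The proteasome carries 3 catalytic subunits, each of which the immunoproteasome replaces: Psmb8 takes the place of Psmb5, Psmb9 that of Psmb6, and Psmb10 that of Psmb7. All 3 immunosubunits rose in T567A over wild-type ezrin cells. Psmb8 (chr17:34197721-34201454, plus strand) had 125 and 141 CPM in T567A cells, 64.7 and 72.1 CPM in T567D cells, 71.7 and 69.5 CPM in wild-type ezrin cells, 134 and 121 CPM in empty-vector cells and 188 and 183 CPM in parental cells. T567A and empty-vector libraries overlapped, and parental stood above both. Psmb8 rose 0.92 ± 0.075 over wild-type ezrin cells (log2, adjusted p = 3.8e-09). Psmb9 had 33.7 and 33.4 CPM in T567A cells, against 17.7 and 16.6 CPM in wild-type ezrin cells, and rose 0.97 ± 0.088 (adjusted p = 1.9e-08). Psmb10 had 128 and 146 CPM in T567A cells, against 80.7 and 79.4 CPM in wild-type ezrin cells, and rose 0.77 ± 0.069 (adjusted p = 1.3e-08).

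None of the standard subunits was called higher. Psmb5 had 91.3 and 98.5 CPM in T567A cells, against 109 and 110 CPM in wild-type ezrin cells, and fell by 0.21 (log2, adjusted p = 0.022). Its call was lost without either wild-type ezrin library and without T567A replicate 2, and 22.2% of its exonic windows are shared, mostly with Gm3375. Psmb6 and Psmb7 changed by 0.05 ± 0.081 and 0.11 ± 0.064 and were not called (adjusted p = 0.63 and 0.18).

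Set against each other per length, Psmb8 made up 27.2% ± 0.64 of the summed RPKM of Psmb8 and Psmb5 in T567A cells, 13.2% ± 0.62 in T567D cells, 14.6% ± 0.31 in wild-type ezrin cells, 22.6% ± 0.36 in empty-vector cells and 27.9% ± 1.1 in parental cells (SD, n = 2 each). The order thus put T567A beside parental, with empty vector between them and the other 2. Psmb9 made up 12.2% ± 0.63 of its pair in T567A cells, 6.96% ± 0.16 in T567D cells, 6.84% ± 0.63 in wild-type ezrin cells, 7.89% ± 0.39 in empty-vector cells and 13.5% ± 2.1 in parental cells (SD, n = 2 each). For Psmb10 the parental line did not stand with T567A. Its share was 53.7% ± 0.97 in T567A cells, 42.5% ± 1.7 in T567D cells, 42.4% ± 0.089 in wild-type ezrin cells, 45.5% ± 0.79 in empty-vector cells and 42.4% ± 2 in parental cells (SD, n = 2 each). These shares are of RNA and carry no test.

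**Figure D3:**
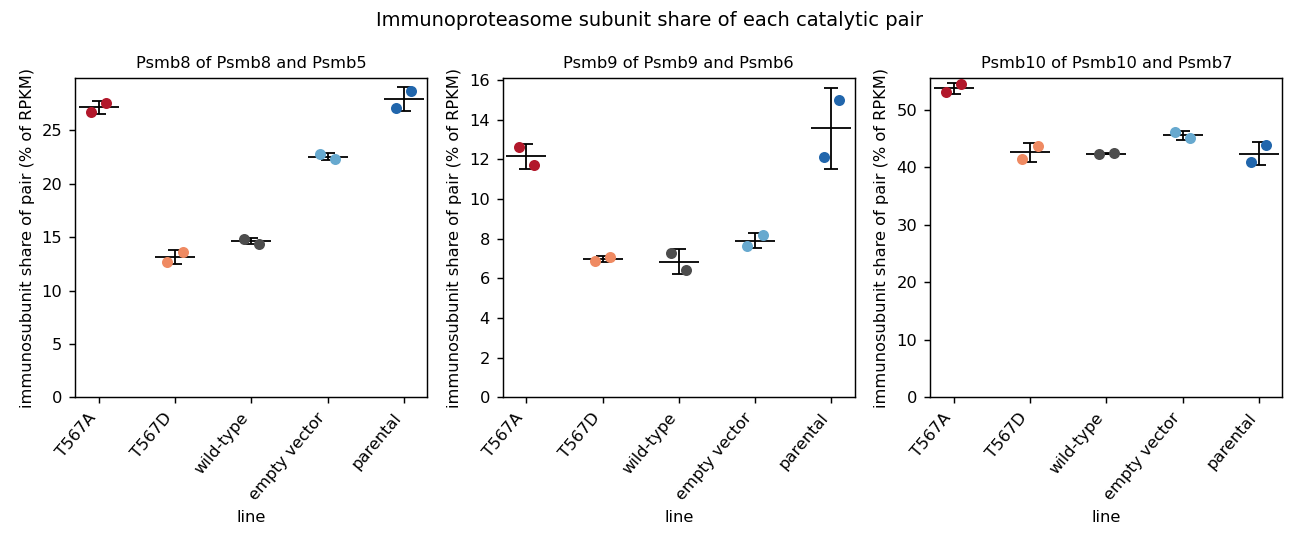
Share of RPKM that the immunosubunit takes in each pair of catalytic subunits, in percent, by library (points) with the mean and SD (bars, n = 2). For Psmb8 the T567A (26.7% and 27.6%) and parental libraries (27.1% and 28.7%) lie together above empty vector, whereas for Psmb10 the T567A libraries (53% and 54.4%) lie above all other lines.

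Psme1 and Psme2, which form the interferon-inducible activator of the proteasome, rose as well. Psme1 had 156 and 158 CPM in T567A cells, 79.4 and 88.8 CPM in T567D cells, 91.3 and 90.5 CPM in wild-type ezrin cells, 95.1 and 89.7 CPM in empty-vector cells and 118 and 116 CPM in parental cells. T567A was above every other library. Psme1 rose 0.79 ± 0.066 and Psme2 0.54 ± 0.072 in T567A over wild-type ezrin cells (log2, adjusted p = 4.8e-09 and 4.8e-06). Of Psme2's exonic windows 18.4% are shared with Psme2b. The nuclear activator Psme3 changed by 0.06 ± 0.06 and was not called. Of the class I-like genes, Mr1, which presents vitamin B metabolites, had 8.83 and 7.73 CPM in T567A cells against 6.69 and 6.22 CPM in wild-type ezrin cells and missed the threshold (log2 0.35 ± 0.14, adjusted p = 0.055), which it passed without T567A replicate 3. Cd1d1, which presents lipids, had at most 0.347 CPM in any library.

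T567D cells were compared with wild-type ezrin cells for the effect of a constant mimic of the phosphate. None of the 32 members was called by edgeR, beside 0.818% of all tested genes called higher and 0.524% lower, and DESeq2 and limma also called none. At an unadjusted p under 0.05 edgeR gave 2, Psme3 and H2-Q6. H2-Q6 had 39.2 and 41.9 CPM in T567D cells, against 33.9 and 30.4 CPM in wild-type ezrin cells (log2 0.34 ± 0.093, adjusted p = 0.085), and was called when no filter on low counts was used. Nlrc5 differed by 0.08 ± 0.13 (adjusted p = 0.9). The summed heavy chains differed by 0.09 ± 0.061 (adjusted p = 0.66), and the median over the members was 0.03.

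**Figure D4:**
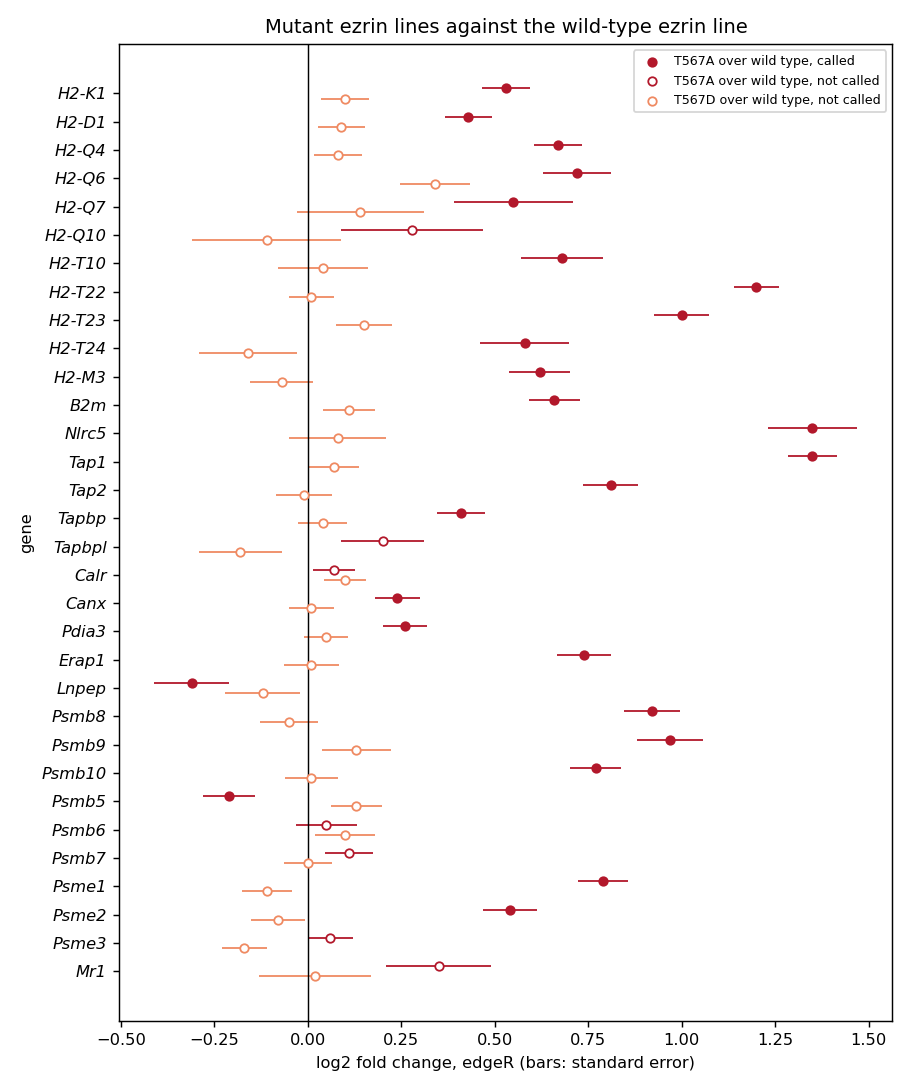
Log2 fold change of each tested member (rows) in T567A (dark) and T567D cells (light), each over the same wild-type ezrin libraries, with the SE as bars; filled points passed an adjusted p under 0.05. The T567A points reach 1.35 for Nlrc5 and Tap1 and lie left of 0 for Lnpep and Psmb5, whereas no T567D point is filled.

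Set directly against each other, T567A cells had 25 members higher than T567D cells, 1 lower and 6 not called, beside 22.5% of all tested genes higher and 21.6% lower. The 23 members called higher against wild-type ezrin cells were all also higher in T567A than in T567D cells. Those 2 comparisons share the T567A libraries. H2-Q7, Pdia3 and Canx lost this call without T567D replicate 3, and H2-Q7 also without 4 other libraries, Pdia3 also without T567A replicate 2. The largest were Tap1 at 1.28 ± 0.065 (log2, adjusted p = 1.9e-12), Nlrc5, H2-T22 at 1.19 ± 0.06 (1.4e-12), Psmb8 at 0.96 ± 0.075 (1.6e-09) and Psme1 at 0.90 ± 0.066 (5.8e-10). Psmb5 was the lower one, by 0.33 ± 0.069 in size (adjusted p = 0.00053). Tapbpl and Psme3 were called here at 0.37 and 0.23, Tapbpl not without T567A replicate 3 or T567D replicate 1. The summed heavy chains rose 0.47 ± 0.061 (adjusted p = 2.1e-06).

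Wild-type ezrin put back into the disrupted line, against the empty vector, gave 10 members lower, none higher and 22 not called by edgeR. Of all tested genes 8.25% were higher and 7.36% lower. At an unadjusted p under 0.05 edgeR had 2 higher, Psme3 and Lnpep, DESeq2 called 2 higher and 7 lower, and upper-quartile scaling gave the same split of 2 and 7. Psmb8 changed most, with 71.7 and 69.5 CPM in wild-type ezrin cells against 134 and 121 CPM in empty-vector cells, and fell by 0.85 (log2, SE 0.075, adjusted p = 9.7e-08). Tap2 fell by 0.40 (adjusted p = 0.00096), H2-Q4 by 0.35 (0.00077), Psmb9 by 0.32 (0.02) and Tap1 by 0.30 (0.0038). H2-T22, H2-M3, Pdia3, Erap1 and Psmb10 were the other 5. H2-K1, H2-D1, B2m and Nlrc5 were not called, and Nlrc5 differed by -0.02 ± 0.13 (adjusted p = 0.94).

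This count rests on every library of the 2 lines. Leaving out empty-vector replicate 2 gave 4, leaving out its replicate 3 gave 5, and leaving out either wild-type ezrin library gave 4. Psmb9 lost its call without any of the 4, at adjusted p of 0.054 to 0.16, as did Psmb10, Pdia3, H2-T22 and H2-M3. Tap1 lost it without empty-vector replicate 2 (0.059) and Erap1 without each of the other 3. Psmb8, Tap2 and H2-Q4 kept theirs.

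T567D cells set against the empty vector, which shares those control libraries, gave 11 lower and none higher by edgeR, with 1 higher at an unadjusted p under 0.05. DESeq2 called 9 lower and limma 10 lower, neither with any higher. The edgeR counts stand beside 9.43% of all tested genes higher and 8.34% lower. Psmb8 had 64.7 and 72.1 CPM in T567D cells against 134 and 121 CPM in empty-vector cells and fell by 0.90 (log2, adjusted p = 4.1e-08). H2-T24 fell by 0.51 (0.0081), Tap2 by 0.40 (0.0008), Tapbpl by 0.39 (0.018) and H2-M3 by 0.35 (0.0058). Nlrc5 differed by 0.06 ± 0.13 (adjusted p = 0.8). Leaving out empty-vector replicate 2 lowered the count to 5, leaving out its replicate 3 to 4, and leaving out either T567D library to 5. H2-T24 lost its call without empty-vector replicate 3 and without T567D replicate 3, Tapbpl without either empty-vector library and without T567D replicate 1, and H2-M3 without T567D replicate 3.

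T567A cells against the empty vector, again over those control libraries, had 21 members higher, 1 lower and 10 not called. Of all tested genes 23.7% were higher and 22.7% lower. Nlrc5 rose 1.33 ± 0.12 (log2, adjusted p = 1.7e-07), Tap1 1.05 ± 0.065 (3e-11), H2-T23 1.00 ± 0.073 (3.9e-10), H2-T22 0.99 ± 0.059 (1.8e-11) and Psme1 0.77 ± 0.066 (5.9e-09). Psmb5 was lower by 0.29 ± 0.069 in size. Psmb8 was not called, with a difference of 0.07 ± 0.072 (adjusted p = 0.47), while Psmb9 and Psmb10 rose 0.65 and 0.56.

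The empty-vector line was then set against parental K7M2. The lines differ in ezrin disruption, in transfection with the vector and in the selection steps, which cannot be told apart here. Of the members 19 were lower, 6 higher and 7 not called. The background was even in direction, with 27.4% of all tested genes higher and 27.2% lower. H2-Q7 changed most, with 8.02 and 6.82 CPM in empty-vector cells against 26.61 and 25.95 CPM in parental cells, and fell by 1.82 (log2, SE 0.13, adjusted p = 1.7e-10). H2-Q6 had 40.6 and 33.1 CPM in empty-vector cells against 78.1 and 71.4 CPM in parental cells and fell by 1.02 (2.9e-09). Nlrc5 had 21.8 and 21.3 CPM in empty-vector cells against 39.9 and 43.0 CPM in parental cells and fell by 0.94 (5.6e-06), and Psmb9 fell by 0.85 (1.8e-08). H2-K1, H2-D1 and B2m fell by 0.56, 0.49 and 0.44. The higher members were H2-T24 at 0.72 ± 0.13 (adjusted p = 7.6e-05), Erap1 at 0.64, Tapbpl at 0.58, Tapbp at 0.44, and Canx and Pdia3 at 0.21 each, Pdia3 not without parental replicate 3. The summed heavy chains fell by 0.49 (SE 0.061, adjusted p = 4.8e-07).

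Against parental cells the members of T567A cells were mixed in direction. Of them 15 were higher, 6 lower and 11 not called, beside 31.4% of all tested genes higher and 30.7% lower. Of the 23 members called higher against wild-type ezrin cells, a comparison with the same T567A libraries, 13 were also higher than in parental cells, 4 were lower and 6 were not called. The 6 without a call were H2-K1, H2-D1, H2-Q4, H2-T10, H2-M3 and B2m, and for H2-K1 the difference was -0.08 ± 0.065 (log2, adjusted p = 0.31). The 4 lower ones were H2-Q6, H2-Q7, Psmb8 and Psmb9, of which Psmb9 lost its call without parental replicate 3 and without either T567A library. B2m was called higher without T567A replicate 2, and of the 13, Tap2 lost its call without T567A replicate 3 and without parental replicate 3, and Nlrc5 without T567A replicate 2 and without parental replicate 1.

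H2-Q7 had 11.0 and 7.57 CPM in T567A cells, against 26.61 and 25.95 CPM in parental cells, and fell by 1.52 (log2, SE 0.13, adjusted p = 1.9e-09). Psmb8 fell by 0.48 (6.4e-06). Erap1 rose 1.09 ± 0.073 (3.5e-11), H2-T24 0.94 ± 0.13 (1.7e-06), Tapbp 0.83 ± 0.065 (4.9e-10) and Psmb10 0.68 ± 0.068 (2.1e-08). Nlrc5 rose 0.39 ± 0.11 (adjusted p = 0.0061), and its call was lost without T567A replicate 2 (0.053) and without parental replicate 1 (0.06).

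**Figure D5:**
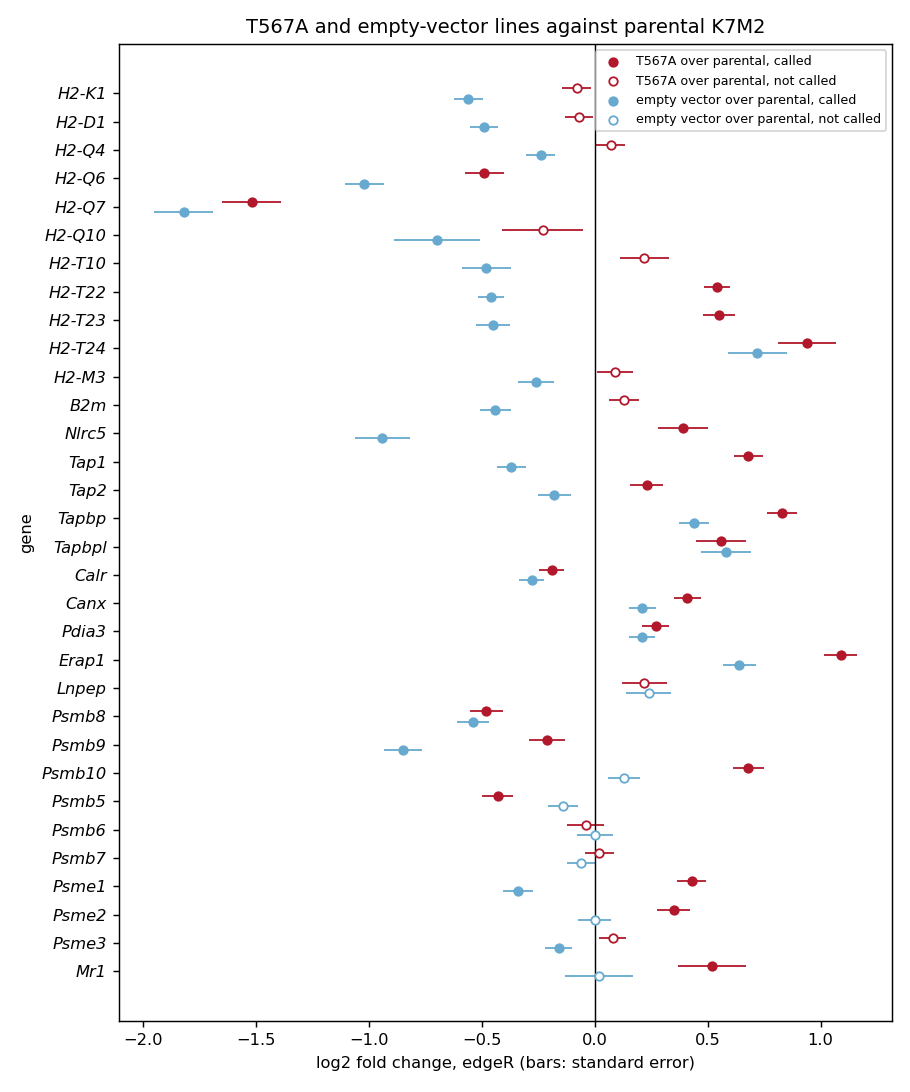
Log2 fold change of each tested member (rows) in T567A (red) and empty-vector cells (blue), each over the same parental libraries, with the SE as bars; filled points passed an adjusted p under 0.05. H2-Q7 lies far left for both lines (-1.52 and -1.82), Erap1 right for both (1.09 and 0.64), and Nlrc5 on opposite sides (0.39 and -0.94).

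Among 20 regulators of these genes, 19 were tested and 6 were higher and 5 lower in T567A than in wild-type ezrin cells, with a median log2 fold change of 0.03, beside 20.4% of all tested genes higher and 19.1% lower. Over 19 genes these counts are close to those shares, and nothing is read from them. Those higher included Stat2, Irf2 and Irf9, transcription factors of interferon signalling. Stat2 had 297 and 284 CPM in T567A cells, against 110 and 111 CPM in wild-type ezrin cells, and rose 1.40 ± 0.08 (adjusted p = 3.2e-11). Irf2 rose 0.74 ± 0.096 (2.8e-06). Rfx5, a DNA-binding partner of Nlrc5 at the X box, had 58.0 and 52.4 CPM in T567A cells against 53.9 and 52.5 CPM in wild-type ezrin cells and was not called (adjusted p = 0.61). The NF-kappa B genes Rela, Relb and Nfkb2 were lower, Rela by 0.44 ± 0.073 in size.

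In empty-vector against parental cells 4 of the 19 tested regulators were higher, 2 lower and 13 not called, with a median of 0.06. Among all tested genes 27.4% were higher and 27.2% lower, and nothing is read from the regulator counts. Stat2 was 1 of the 4 higher ones and rose 0.65 ± 0.082 (log2, adjusted p = 1.1e-06). Ifnb1, the interferon beta gene, had 1.10 and 1.00 CPM in T567A cells, against 0.233 and 0.343 CPM in wild-type ezrin cells. It passed the filter on low counts only through the T567A libraries, so its fold change and p-value are left out. The wild-type ezrin values are near the level of 3 counts, and the other 8 interferon genes listed did not pass the filter on low counts.

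The rest of the proteasome was taken as 2 lists, to be read beside 20.4% of all tested genes higher and 19.1% lower in T567A over wild-type ezrin cells. In that comparison 8 of 12 core particle genes were higher and none lower, with a median of 0.23, led by Psma1 at 0.46 ± 0.061. Of 19 cap genes 8 were higher and 1 lower, with a median of 0.14. Of 17 endoplasmic reticulum folding and translocation genes 12 were higher and none lower, with a median of 0.20, led by Sec61g at 0.54 ± 0.074. Of 8 cytosolic peptidases, a short list, 3 were higher and 1 lower.

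Other genes that T cells and natural killer cells read were taken as 2 short lists. In T567A over wild-type ezrin cells 2 of 4 tested checkpoint genes were higher and 1 lower. Of 6 tested ligands of natural killer receptors 1 was higher, 2 were lower and 3 were not called. Among all tested genes 20.4% were higher and 19.1% lower, and nothing is read from counts over so few genes. Cd274, which encodes the checkpoint ligand PD-L1, had 16.5 and 16.2 CPM in T567A cells, against 5.70 and 6.39 CPM in wild-type ezrin cells, and rose 1.43 ± 0.13 (log2, adjusted p = 1.2e-08). Clec2d, a ligand of an inhibitory natural killer receptor, had 25.7 and 23.9 CPM in T567A cells, against 8.90 and 9.48 CPM in wild-type ezrin cells, and rose 1.43 ± 0.12 (6.1e-09). Ulbp1, a ligand of the activating receptor NKG2D, went the other way, with 110 and 94.6 CPM in T567A cells against 172 and 182 CPM in wild-type ezrin cells, and fell by 0.79 (4.3e-08). Pvr, a ligand of DNAM-1, was the other lower ligand and fell by 0.43 (0.00044), while Raet1d, Raet1e and H60b were not called. Of the tested checkpoint genes Cd276, which encodes B7-H3, had the largest change, with means of 0.873 CPM in T567A cells and 3.23 CPM in wild-type ezrin cells, and fell by 1.89 (7.5e-06). Cd47 rose 0.27 ± 0.059 (0.00098) and Cd80 was not called. Of the 6 ligands 5 were higher and none lower in empty-vector than in parental cells by edgeR, with a median of 1.14, beside 27.4% of all tested genes higher and 27.2% lower. Raet1e, another NKG2D ligand, had 18.5 and 20.5 CPM in empty-vector cells, against 6.51 and 6.47 CPM in parental cells, and rose 1.59 ± 0.12 (2e-10).

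Class II genes were close to silent. Of 11 listed, 2 passed the filter, and the class II transactivator Ciita had at most 0.175 CPM in any library. Cd74, the invariant chain, had 4.97 and 6.06 CPM in T567A cells, 1.33 and 1.93 CPM in T567D cells, 2.04 and 2.00 CPM in wild-type ezrin cells, 1.19 and 1.39 CPM in empty-vector cells and 7.03 and 6.82 CPM in parental cells. Parental and T567A libraries stood above the other 6, and Cd74 rose 1.46 ± 0.21 in T567A over wild-type ezrin cells (log2, adjusted p = 1e-05). The other class II gene that passed, H2-DMa, had 7.31 and 6.18 CPM in T567A cells, 6.47 and 7.42 CPM in T567D cells, 8.20 and 6.11 CPM in wild-type ezrin cells, 4.41 and 4.28 CPM in empty-vector cells and 3.54 and 3.97 CPM in parental cells. It was lowest in parental cells and was not called in T567A over wild-type ezrin cells (-0.09 ± 0.16, adjusted p = 0.68). Of the other 7 class I heavy chain and class I-fold genes tested, 3 were higher and 1 lower in that comparison. The shares over all tested genes were 20.4% higher and 19.1% lower, and the list is short. H2-Q1 was among the higher ones at 1.17 ± 0.25 (adjusted p = 0.0065), with 26.01 and 16.08 CPM in T567A cells against 9.83 and 8.62 CPM in wild-type ezrin cells. Csf1r, the leukocyte marker that these cells hold, rose 0.23 ± 0.056 in T567A over wild-type ezrin cells (adjusted p = 0.003). Its part in the other results was not tested.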

How the data were processed

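PolyA RNA from 10 libraries was prepared with a strand-specific dUTP kit and sequenced on a DNBSEQ platform, per the labels' protocols. The authors deposited a raw count table and an RPKM table per library, and the submitters' processing notes name the build GRCm38. The sources used here do not give the aligner, the counter, its use of strand or the annotation. The members and gene lists were chosen with earlier results of these data known. Counts were analysed as deposited, with edgeR 4.0.16 (R 4.3.3): filterByExpr (minimum count 10, total 15), TMM, 1 quasi-likelihood fit over the 10 libraries with line as the factor, and 8 comparisons. CPM values are TMM-scaled. Each SE is the absolute log2 fold change divided by the square root of F. Deposited RPKM values served for levels compared between genes, with no test.

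Full statistics are given, in each comparison, for the 5 called members with the largest change among those whose higher line averaged 5 CPM or more, and for Nlrc5. Of other lists up to 3 such genes are named, and further ones were added after their values were seen. Statistics of other members are given too. The values of 1 listed regulator are not reported here. On simulated counts for T567A against wild-type ezrin (12595 genes), 72 of 100 genes changed 1.5-fold and 88 of 100 changed 2-fold were recovered. Alternatives were DESeq2 1.42.0, limma 3.58.1 on log2(RPKM + pseudocount), other scalings, filters and thresholds, a replicate block, a summed heavy chain row, and leaving out each library. Precision rests on 2 libraries a line, and the level of 3 counts covers counting error only. Libraries of a line differed by more than sampling noise (chi-square per degree of freedom 2.53 to 8.92, highest in T567A), and none was an identical copy. Repeat preparations of the same RNA cannot be told from separate cultures in this way. The fit shares its estimate of spread over all lines, so T567A comparisons can rest on a tighter spread than T567A shows. Gene positions and exon overlaps came from GENCODE M21, and promoters from RefSeq's table.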

Additional observations from a re-analysis of the deposited data

How the results depend on the processing

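RLE and upper-quartile scaling, DESeq2, limma with either pseudocount, a filter of 5 CPM and a fit of only the 2 lines compared left each count of called members within 1.5 times its value. A test against a 1.5-fold change left 9 calls for T567A over wild-type ezrin and 9 for T567A over T567D. It left 1 for wild-type ezrin over empty vector, 4 for empty vector over parental and 5 for T567A over empty vector. For T567D over empty vector it left 1 and for T567A over parental 4. The 9 kept for T567A over wild-type ezrin were Nlrc5, Tap1, Tap2, Psmb8, Psmb9, Psmb10, Psme1, H2-T22 and H2-T23. Those lost included H2-K1, H2-D1, B2m, Tapbp, Erap1 and Psme2. Summing the heavy chains into 1 row leaves fewer rows to test. The main test then called 16 rows for T567A over wild-type ezrin and 17 for T567A over T567D. It called 15 for empty vector over parental and 6 for T567D over empty vector. Without a filter on low counts T567D over wild-type ezrin gave 1 call. At an adjusted p under 0.01, wild-type ezrin over empty vector gave 5 and T567D over empty vector 6. The shares of all tested genes given above belong to the main test. None is given for the alternatives in this section, so their counts cannot be read against a background.

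Same-numbered libraries showed no general pairing, and their deviations correlated at -0.0995 to 0.0705. With 2 libraries a line these values are not independent of each other. A correlation over all genes cannot show a batch that touches only some. With the replicate number as a block, wild-type ezrin over empty vector gave 5 calls and T567D over empty vector 5, and no other count moved by over 1.5 times.

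Leaving out 1 library at a time gave 22 to 25 calls for T567A over wild-type ezrin, 24 to 26 for T567A over T567D, 4 to 13 for wild-type ezrin over empty vector, 20 to 26 for empty vector over parental, 20 to 25 for T567A over empty vector, 4 to 13 for T567D over empty vector, 19 to 21 for T567A over parental, and 0 for T567D over wild-type ezrin. A line left with 1 library was assumed to vary like the others. The summed heavy chains kept their side of the threshold in each of their alternatives. Single-gene values were counted for 39 results only, those of Nlrc5 and of the largest called members in each comparison. Of their 845 values, 814 kept direction and side of the threshold, 31 kept direction only and 0 reversed. Other members with statistics above, such as H2-K1, H2-D1 and B2m, were not in this count. With 2 libraries a line, changes can be missed at 1.5-fold, where 72 of 100 simulated ones were recovered, and below it. Some of 2-fold can be missed too, where 88 of 100 were recovered.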
